A study of Mus musculus with 6 samples.

Results

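The genes described here encode the proteasome and the proteins that assemble and regulate it, apart from Psmb8 and Psmb9, the interferon-inducible catalytic subunits encoded in the major histocompatibility complex. They were chosen by symbol, as every gene with a probe of a single symbol that starts with Psma, Psmb, Psmc, Psmd, Psme, Psmf or Psmg followed by a digit. The rule found 47 genes of the 18193 on the array, covered by 100 probes, and the probe with the highest mean over the 6 arrays stood for each gene. Of the 47, 45 passed a filter on dim genes and were tested, and 2 did not, the testis subunit Psma8 and the thymus cortex subunit Psmb11. The symbol rule also took in Psmc3ip and Psme3ip1, which are not proteasome subunits and are given apart. Psme2 shares its only probe with another symbol and was not analysed here.

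RNA was measured on 6 arrays of sorted mouse thymocytes, with 2 arrays for each of 3 stages of development. DP cells carry both coreceptors CD4 and CD8, CD4intCD8+ cells have an intermediate level of CD4, and CD8SP cells carry CD8 alone. All groups shared one genotype: the N15 T cell receptor transgene (tg+/+), a Rag2-/- background and the H-2b haplotype, in 6 mice matched for age (5 to 6 weeks) and sex, whose cells were stained for CD4 and CD8 and sorted in 2 experiments. N15 is restricted by MHC class I, so these cells model the path of 1 receptor specificity to the CD8 lineage and hold no cells with rearranged endogenous receptors. The sources used here name neither the promoter of the transgene nor whether an array holds cells of several mice, so a p-value speaks for the spread among these arrays alone. Median intensities lay between 24.9 and 25.7 on the 6 arrays, and replicate arrays correlated at 0.975 to 0.983 across genes. The transcript of the sorting marker Cd4 averaged an intensity of 433 in DP cells, -10.6 in CD4intCD8+ cells and -67.2 in CD8SP cells. Values below 0 come from a subtraction made before deposit, and CD4 in the CD4intCD8+ label refers to the surface protein. The CD8 transcripts were also lower after the DP stage. In the same order of stages Cd8a averaged 3360, 1921 and 1701, and Cd8b1 3707, 2095 and 2296. A value here is RNA signal in a sorted population, in which fewer cells of a kind and less RNA per cell cannot be told apart.

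The proteasome is the protease that degrades ubiquitin-tagged proteins in the cytosol and nucleus and supplies most of the peptides shown on MHC class I. Its barrel, the 20S core, stacks rings of alpha subunits, which form the gate, around rings of beta subunits, of which a few carry the active sites; the 19S regulatory particle recognises ubiquitin, unfolds the substrate with a ring of ATPases and opens the gate. In the thymus the composition of the core differs between cell types, with a cortex-specific subunit in epithelial cells and inducible subunits in haematopoietic cells, and class I peptides made by these cores take part in the selection of CD8 cells.

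Several proteasome genes were higher after the DP stage, by modest amounts. In CD4intCD8+ cells Psme3, Psma4, Psmg4, Psmd1 and Psma1 rose relative to DP cells, by 0.40 to 0.68 on the log2 scale, and 0 members fell (limma on log2 intensities over all genes, Benjamini-Hochberg adjusted p under 0.05). These were 5 of the 45 members tested (11.1%), against 6.86% of all 10916 genes called higher and 4.84% called lower. In CD8SP cells Psme3, Psmg2, Psmb10, Psmd1, Psmg4, Psmf1 and Psma4 rose relative to DP cells and Psmd8 fell. The 7 higher members (15.6%) stand beside 11.5% of all genes, and the 1 lower member (2.22%) beside 8.35%. Both comparisons use the same DP arrays. Between CD8SP and CD4intCD8+ cells 0 members were called, against 0.119% of all genes, while 3 had an unadjusted p under 0.05 (6.67%, against 9.61% of all genes). The F test over the stages called 5 members (11.1%), Psma4, Psmb10, Psmd1, Psme3 and Psmg2, against 15.2% of all genes. With the replicate number as a block it called 17 members (37.8%), against 28.4% of all genes. Without the block it called 0 when DP replicate 1 was left out (5.13% of all genes), 1 when DP replicate 2 was (4.21%) and 2 when CD8SP replicate 2 was (10.4%).

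The changes were mostly shallow and mostly in one direction. The median log2 change of the 45 members was 0.19 in CD4intCD8+ against DP cells, where the median of all genes was 0.01. There 33 members lay above 0, and 5629 of all 10916 genes did. The members' median was 0.17 in CD8SP against DP cells (all genes 0.01) and -0.01 in CD8SP against CD4intCD8+ cells. With DP replicate 1 left out it was 0.076 in CD8SP against DP cells. In that comparison, with all arrays, 32 members lay above 0, and 5638 of all 10916 genes did. Both CD4intCD8+ arrays lay above both DP arrays for 25 members (55.6%), against 30.8% of all genes, and both lay below for 6 members (13.3%), against 27.9%. Both CD8SP arrays lay above both DP arrays for 20 members (44.4%; 32.4% of all genes) and below them for 7 (15.6%; 29.1%). In 18 members (40%) all 4 later arrays lay above both DP arrays, against 23.5% of all genes. At the first step 3 members, Psma4, Psme3 and Psmg4, reached 1.5-fold (6.67%), against 13.8% of all genes. Leaving out an array gave 1 (CD4intCD8+ replicate 2), 2 (DP replicate 1), 5 (DP replicate 2) or 6 (CD4intCD8+ replicate 1) such members, and 11.7%, 14.6%, 16% and 19.3% of all genes. At this step 16 members (35.6%) had an unadjusted p under 0.05, against 28.8% of all genes.

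**Figure D1:**
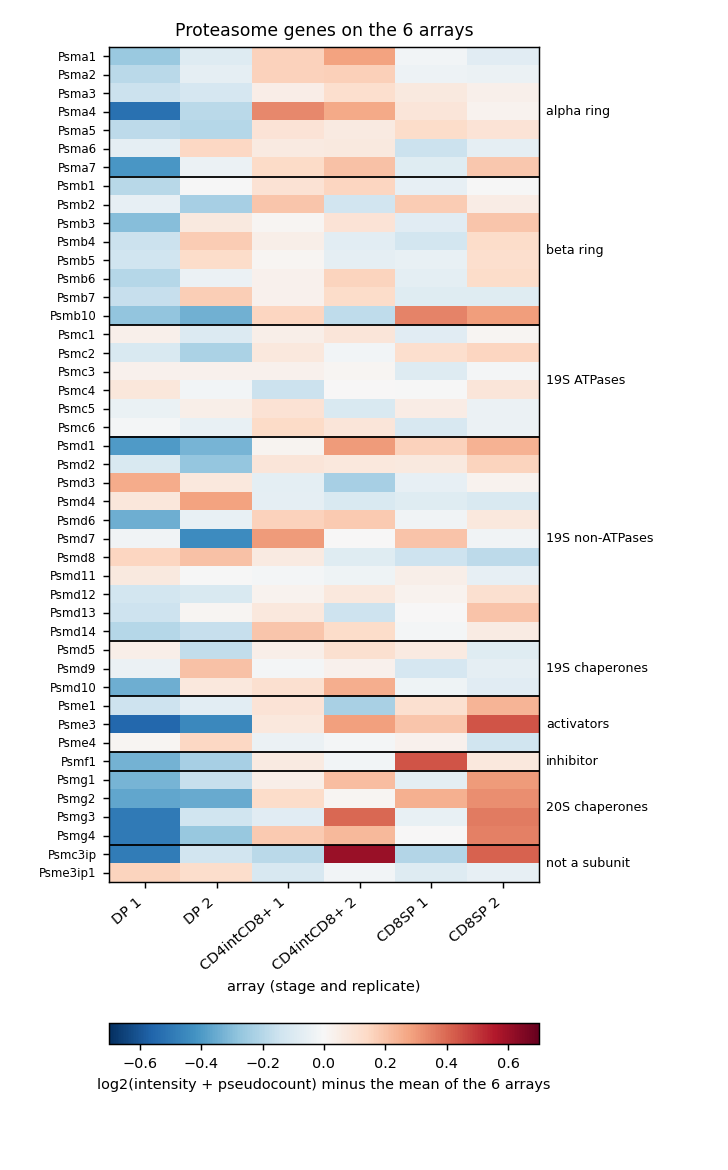
Each row is 1 of the 45 tested genes and each column 1 array; colour gives log2(intensity + pseudocount) minus the mean of the gene's 6 arrays, from blue (lower) to red (higher). The alpha ring and the 20S chaperones are mostly blue on the DP arrays, while most 19S ATPases stay closer to white. Psmc2, a 19S ATPase, is lower on both DP arrays than on all later arrays.

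The labels number the arrays of each stage 1 and 2 and name 2 experiments without tying the numbers to them, and a fit with that number as a block passed more members. Within replicate 1 the median change of the members from DP was 0.23 in CD4intCD8+ cells and within replicate 2 it was 0.18, and 28 of 45 members (62.2%) were higher in both, against 37.8% of all genes. For CD8SP against DP cells, 27 members (60%) were higher in both, against 39.2% of all genes. With the replicate number as a block, limma called 15 members higher and 1 lower in CD4intCD8+ than in DP cells (33.3% and 2.22%, against 13.3% and 10.1% of all genes). It called 11 higher and 2 lower in CD8SP than in DP cells (24.4% and 4.44%, against 16.9% and 13.1% of all genes). The counts without the block also rest on single arrays: in CD4intCD8+ against DP cells 0 members were called without DP replicate 1 and 1 (Psma4) without DP replicate 2 or CD4intCD8+ replicate 2. In these 3 fits the share of all genes called was 2.9%, 1.71% and 4.33%, against 11.7% with all arrays. In CD8SP against DP cells 1 member (Psmg2) was called when DP replicate 1 was left out, and 3 (Psma4, Psme3 and Psmg2) when DP replicate 2 was. Leaving out CD8SP replicate 1 left 4 (Psmd1, Psme3, Psmg2 and Psmg4), and leaving out CD8SP replicate 2 left 3 (Psmb10, Psmf1 and Psmg2). The share of all genes called was 9.56%, 9.33%, 14.2% and 9.96% in these fits, in the same order, against 19.8% with all arrays.

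**Figure D2:**
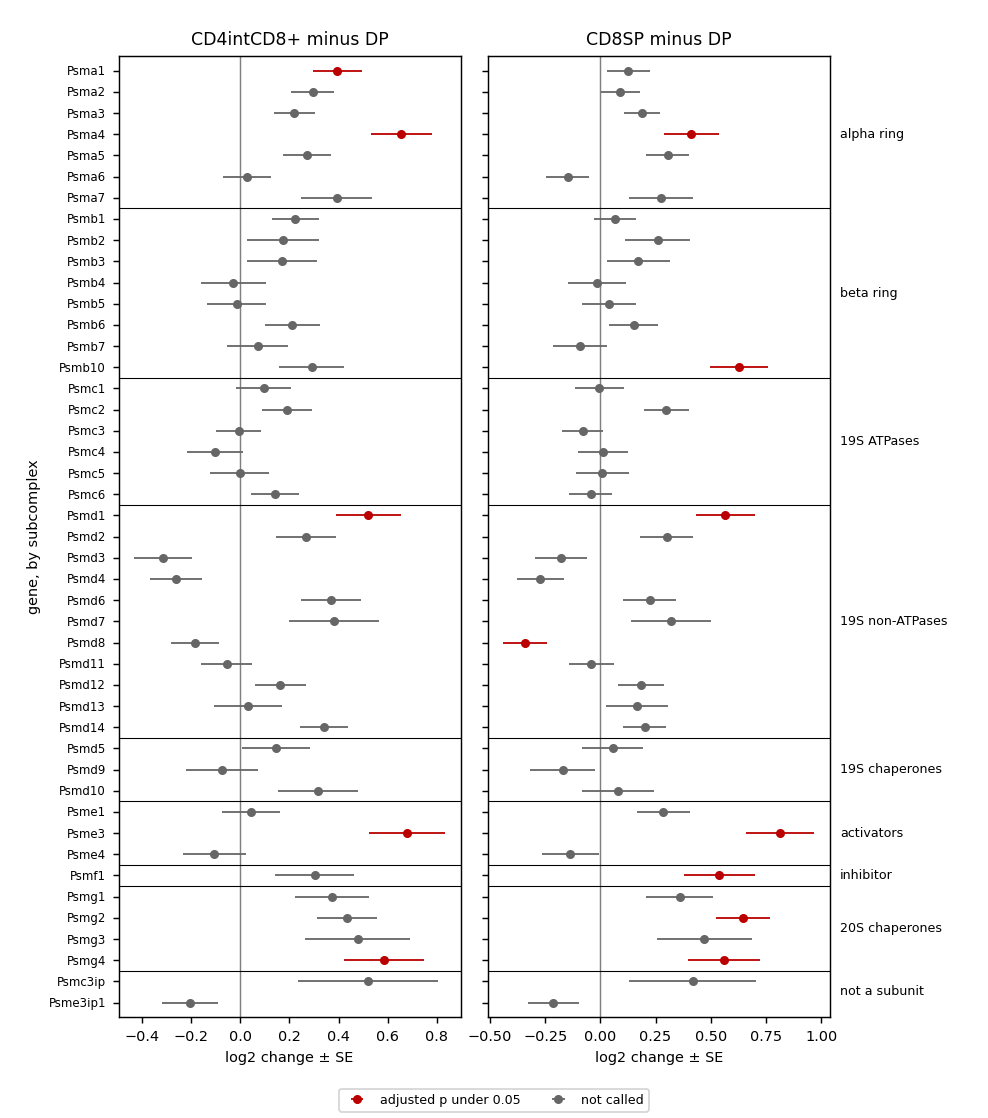
Points are log2 changes against DP cells with their standard errors, for CD4intCD8+ cells (left) and CD8SP cells (right), with 1 row per gene; red marks an adjusted p under 0.05. The values run from -0.32 to 0.68 on the left and from -0.34 to 0.82 on the right, and all 4 of the 20S chaperones lie above 0 in both.

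The promoters of the 5 genes called higher in CD4intCD8+ cells are shown so that the changes can be set beside the sequence upstream, with that of Psmb5, a catalytic subunit that did not pass the test, for comparison. Each is the 250 bases before the annotated start, 5′ to 3′ on the strand of the gene, from RefSeq (GRCm38.p6). Capitals mark matches on either strand to the CCAAT box, to CCGGAAG (the core bound by Ets factors), to TGACNNNGC (the core of the antioxidant response element, the site of the factors that induce proteasome genes when proteasome activity is low), to the core of the interferon-stimulated response element (GAAA, any 2 bases, then GAAA) or to TTCNNNGAA (the gamma-activated site).
Psma1 (chr7:114276117-114276366, minus strand): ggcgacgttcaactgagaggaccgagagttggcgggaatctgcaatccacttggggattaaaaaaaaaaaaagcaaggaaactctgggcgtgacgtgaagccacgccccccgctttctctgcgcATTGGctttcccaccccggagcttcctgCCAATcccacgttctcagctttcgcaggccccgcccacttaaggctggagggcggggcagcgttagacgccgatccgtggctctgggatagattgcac
Psma4 (chr9:54950609-54950858, plus strand): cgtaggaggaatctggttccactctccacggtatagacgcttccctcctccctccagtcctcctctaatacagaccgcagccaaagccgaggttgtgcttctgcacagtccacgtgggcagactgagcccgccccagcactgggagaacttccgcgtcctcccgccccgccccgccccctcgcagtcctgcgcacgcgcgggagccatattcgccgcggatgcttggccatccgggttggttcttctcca
Psmd1 (chr1:86064369-86064618, plus strand): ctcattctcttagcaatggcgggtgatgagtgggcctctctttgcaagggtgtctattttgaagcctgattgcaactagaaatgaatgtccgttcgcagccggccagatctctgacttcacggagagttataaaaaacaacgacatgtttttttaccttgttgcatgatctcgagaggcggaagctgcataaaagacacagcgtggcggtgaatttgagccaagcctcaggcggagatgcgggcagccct
Psme3 (chr11:101315963-101316212, plus strand): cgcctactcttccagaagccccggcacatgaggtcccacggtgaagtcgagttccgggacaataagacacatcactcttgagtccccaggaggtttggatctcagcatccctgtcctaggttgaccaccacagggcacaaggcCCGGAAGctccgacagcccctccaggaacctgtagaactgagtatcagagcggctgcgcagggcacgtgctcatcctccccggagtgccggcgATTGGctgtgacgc
Psmg4 (chr13:34162714-34162963, plus strand): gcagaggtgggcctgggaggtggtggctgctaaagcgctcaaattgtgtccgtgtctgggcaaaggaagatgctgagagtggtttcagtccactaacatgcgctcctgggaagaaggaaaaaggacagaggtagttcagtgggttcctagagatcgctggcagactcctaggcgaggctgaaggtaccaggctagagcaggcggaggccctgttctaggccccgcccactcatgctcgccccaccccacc
Psmb5 (chr14:54617996-54618245, minus strand): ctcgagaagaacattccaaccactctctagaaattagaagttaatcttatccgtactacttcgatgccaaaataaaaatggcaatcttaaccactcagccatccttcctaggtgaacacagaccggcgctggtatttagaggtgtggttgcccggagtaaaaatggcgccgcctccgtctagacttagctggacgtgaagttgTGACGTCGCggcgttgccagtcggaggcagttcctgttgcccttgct
Psma1 holds 2 CCAAT boxes, which start at -126 and -98 from the transcription start. Psme3 holds the Ets core at -107 and a CCAAT box at -14. Psma4, Psmd1 and Psmg4 hold none of the 5 motifs in this window, and Psmb5 holds a TGACNNNGC at -47.

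Promoters of 39 of the 47 members were examined, among them those of Psmc3ip and Psme3ip1, which are not subunits, and of the untested Psmb11. Chromosome 18, which holds Psma8 and Psmg2, was left out for the members but not for the other genes. CCGGAAG was present in 12 of the 39 (30.8%), Psmc3ip among them, against 14.2% of the 8856 tested genes with a promoter and 7.05% of all 27025 promoters. Its matches lay in 5 of 9 promoters of 19S non-ATPases and 3 of 5 of 19S ATPases, and in 0 of 7 of the alpha ring. CCAAT was present in 14 (35.9%, against 36.2% of tested genes and 34.5% of all), among them 5 of the 7 alpha-ring promoters, Psmc3ip and Psmb11. TGACNNNGC was present in 5 (12.8%; 11.8% of tested genes, 10.1% of all), the interferon-stimulated core in 3 (7.69%; 2.53% and 3.04%) and TTCNNNGAA in 1 (2.56%; 5.92% and 7.18%). The median GC content was 57.6% in the members' promoters and 52.0% in all; the part of base composition in these shares was not tested. These matches are descriptions of the letters in the window.

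The alpha ring closes the gate of the core with the N-termini of its subunits. All 7 of its tested genes had a positive change in CD4intCD8+ against DP cells, with a median of 0.29. In CD8SP against DP cells 6 of the 7 did, with a median of 0.19. Of all 10916 genes, 5629 and 5638 had a positive change in these comparisons. Of the 7 alpha genes 2 and 1 were called, where 11.7% and 19.8% of all genes were called in either direction. Psma4 had intensities of 694 and 875 in DP cells, 1262 and 1202 in CD4intCD8+ cells and 1060.0 and 1017 in CD8SP cells. The 3 stages do not overlap, with CD4intCD8+ highest. Psma4 rose by 0.66 ± 0.12 in CD4intCD8+ against DP cells (SE; adjusted p = 0.0128) and by 0.41 ± 0.12 in CD8SP against DP cells (adjusted p = 0.0464). The first call was lost without DP replicate 1 (0.49, adjusted p = 0.0757). The second was lost without DP replicate 1 (0.25, adjusted p = 0.25), without CD8SP replicate 1 (adjusted p = 0.151) and without CD8SP replicate 2 (adjusted p = 0.128).

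Psma1 had intensities of 1228 and 1384 in DP cells, 1647 and 1789 in CD4intCD8+ cells and 1454 and 1394 in CD8SP cells. It rose in CD4intCD8+ against DP cells by 0.40 ± 0.10 (adjusted p = 0.0348), with both CD4intCD8+ arrays above the 4 others. The call was lost without DP replicate 1, DP replicate 2 or CD4intCD8+ replicate 2, at changes of 0.31, 0.48 and 0.34. With the mean of its 4 probes, of which 3 lie below the filter on dim genes, Psma1 stood at -0.16 (adjusted p = 0.708). Psma2 shared this order, with 1453 and 1587 in DP cells, 1861 and 1866 in CD4intCD8+ cells and 1622 and 1613 in CD8SP cells, and a change of 0.29 ± 0.09 that missed the threshold (adjusted p = 0.0594; 0.0183 with the block). In CD8SP against CD4intCD8+ cells Psma1 stood at -0.27 (unadjusted p = 0.0236, adjusted p = 0.42) and Psma2 at -0.20 (unadjusted p = 0.0441, adjusted p = 0.503).

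The other alpha subunits lay in between. Psma7 had 703 and 908 in DP cells, 1025 and 1076 in CD4intCD8+ cells and 879.7 and 1064 in CD8SP cells (0.39 ± 0.14 in CD4intCD8+ against DP cells, adjusted p = 0.111; 0.0155 with the block). Psma5 had 761 and 755 in DP cells, 927 and 905 in CD4intCD8+ cells and 948 and 926 in CD8SP cells, with the later arrays all above DP (0.27 and 0.30, adjusted p = 0.104 and 0.0587; 0.0441 and 0.0226 with the block). Psma3 stood at 0.22 ± 0.08 in CD4intCD8+ against DP cells (adjusted p = 0.118). Psma6 was the exception, with 1643 and 1896 in DP cells, 1794 and 1802 in CD4intCD8+ cells and 1543 and 1641 in CD8SP cells, so that the CD8SP arrays were the lowest (-0.15 ± 0.10 against DP, adjusted p = 0.323). Psma8, which replaces an alpha subunit in testis, read 3.8 to 15.7 on the 6 arrays, below the filter at an intensity of 30.8.

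**Figure D3:**
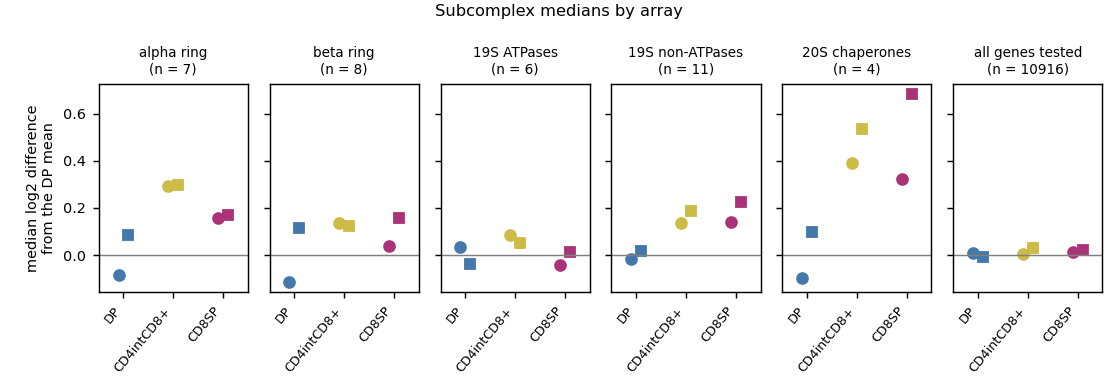
Each panel gives, per array, the median over a subcomplex of the log2 difference from the gene's DP mean, with replicate 1 as circles and replicate 2 as squares. In CD4intCD8+ cells the alpha ring stands at 0.29 and 0.30 and the 20S chaperones at 0.39 and 0.53; in CD8SP cells they stand at 0.16 and 0.17, and at 0.32 and 0.68. The plot places all genes tested within 0.03 of 0 on every array.

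The beta ring holds the active sites. Of its 8 tested genes 0 were called in CD4intCD8+ against DP cells (11.7% of all genes). In CD8SP against DP cells 1, Psmb10, was called (19.8% of all genes). The median changes were 0.17 and 0.11. Psmb10 encodes the inducible counterpart of the trypsin-like subunit. Its intensity was 491 and 469 in DP cells, 660.1 and 525 in CD4intCD8+ cells and 759 and 731 in CD8SP cells, with no overlap between the stages. It rose by 0.63 ± 0.13 in CD8SP against DP cells (adjusted p = 0.0114), with 0.29 at the first step (adjusted p = 0.187) and 0.34 at the second (adjusted p = 0.462; unadjusted p = 0.032). The call was lost without DP replicate 1, DP replicate 2 or CD8SP replicate 1, at an adjusted p of 0.0532, 0.0708 and 0.0521, with changes of 0.66, 0.59 and 0.60.

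The constitutive catalytic subunits did not pass the test in any comparison. Psmb5, the chymotrypsin-like subunit, had 873 and 1053 in DP cells, 973 and 924 in CD4intCD8+ cells and 928 and 1044 in CD8SP cells. Psmb6, the caspase-like subunit, had 984 and 1102 in DP cells, 1155 and 1260.3 in CD4intCD8+ cells and 1079 and 1238 in CD8SP cells. Psmb7, the trypsin-like subunit, had 971 and 1225 in DP cells, 1107 and 1186 in CD4intCD8+ cells and 1024 and 1023 in CD8SP cells. The DP arrays differ from each other by as much as the stages do for Psmb5 and Psmb7, while both CD4intCD8+ arrays of Psmb6 lie above DP. Their changes in CD4intCD8+ against DP cells were -0.02, 0.21 and 0.07, each with a standard error of 0.11 to 0.12. Of the structural subunits, Psmb1 had a change of 0.22 ± 0.10 in CD4intCD8+ against DP cells (adjusted p = 0.159) and Psmb4 one of -0.03 ± 0.13, while Psmb2 and Psmb3 stood at 0.17 each. Psmb11, the catalytic subunit of cortical thymic epithelium, read 10.5 to 17.1 on the 6 arrays, under the filter at every stage.

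The inducible subunits were set against the constitutive ones they replace, as changes within an array. The log2 ratio of Psmb10 over Psmb7 differed from its DP mean by 0.22 in CD4intCD8+ cells and by 0.72 in CD8SP cells; these ratios were not tested. Its array values around the DP mean were 0.20 and -0.20 in DP cells, 0.43 and 0.01 in CD4intCD8+ cells and 0.75 and 0.69 in CD8SP cells, so only the CD8SP arrays are clear of the DP arrays. Psmb9 over Psmb6 differed from its DP mean by 0.45 in CD4intCD8+ cells and 0.51 in CD8SP cells, with the 4 later arrays between 0.38 and 0.51 and the DP arrays at -0.02 and 0.02. Psmb8 over Psmb5 stood at 0.10 in CD4intCD8+ cells and 0.04 in CD8SP cells, and its CD8SP arrays overlap the DP arrays. The 3 pairs differed from their DP means by unequal amounts, and Psmb9 itself rose by 0.66 in CD4intCD8+ against DP cells (adjusted p = 0.0155, lost without DP replicate 1, DP replicate 2 or CD4intCD8+ replicate 2 at 0.105, 0.0577 and 0.0676).

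**Figure D4:**
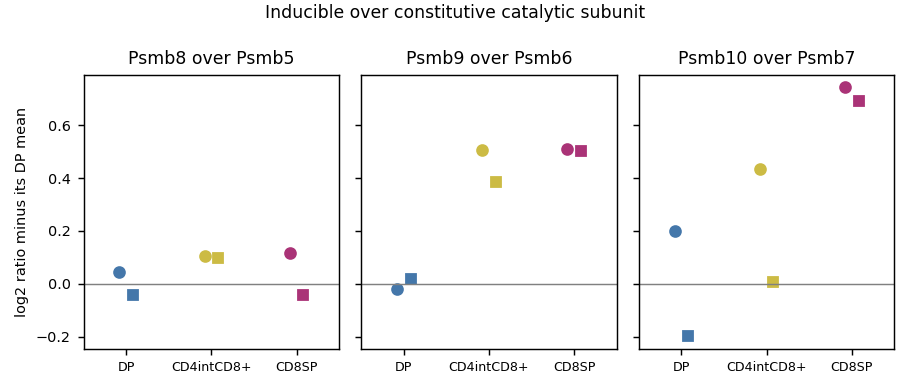
For each pair of inducible over constitutive catalytic subunit, points give the log2 ratio on each array minus its mean over the DP arrays, with replicate 1 as circles and replicate 2 as squares. Psmb9 over Psmb6 is higher on all 4 later arrays, Psmb10 over Psmb7 is highest on the CD8SP arrays at 0.75 and 0.69, and Psmb8 over Psmb5 stays within 0.12 of its DP mean.

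The 19S ATPases, the ring that unfolds substrates and threads them into the core, stood close to 0. Of 6 tested, 0 were called in any pairwise comparison. Of all genes 11.7% were called in CD4intCD8+ and 19.8% in CD8SP against DP cells, and 0.119% between the later stages. In CD4intCD8+ against DP cells 3 of the 6 lay above 0, and 5629 of all 10916 genes did. The median changes of the ATPases were 0.05 in CD4intCD8+ and 0.00 in CD8SP against DP cells. Psmc2 had 931 and 858 in DP cells, 1055 and 986 in CD4intCD8+ cells and 1088 and 1113 in CD8SP cells, and its 4 later arrays all lay above DP. Its change in CD8SP against DP cells was 0.30 ± 0.10 (adjusted p = 0.0681; 0.0251 with the block). Psmc4 had the lowest change, with 692 and 644 in DP cells, 588 and 655 in CD4intCD8+ cells and 653 and 694 in CD8SP cells (-0.10 ± 0.11 in CD4intCD8+ against DP cells, adjusted p = 0.596). Psmc3 was close to level, with 1158 and 1156 in DP cells, 1158 and 1144 in CD4intCD8+ cells and 1064 and 1124 in CD8SP cells. Psmc1 (598 to 679 on the 6 arrays) and Psmc6 (928 to 1099.7) had both CD4intCD8+ arrays above the 4 others, and Psmc5 (551 to 637) overlapped between all stages. The standard errors of these changes were 0.09 to 0.12, so small changes cannot be told from 0.

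The 19S non-ATPases, which include the ubiquitin receptors, the scaffold of the base and the lid that removes ubiquitin, went both ways. Of 11 tested, 1 was called higher and 0 lower in CD4intCD8+ against DP cells (6.86% and 4.84% of all genes). In CD8SP against DP cells 1 was called higher and 1 lower (11.5% and 8.35% of all genes). Psmd1, a scaffold of the base, had intensities of 342 and 359.6 in DP cells, 459 and 558 in CD4intCD8+ cells and 508 and 537 in CD8SP cells, and the 4 later arrays lay above DP. It rose by 0.52 ± 0.13 in CD4intCD8+ (adjusted p = 0.0372) and by 0.57 ± 0.13 in CD8SP against DP cells (adjusted p = 0.0179). The first call was lost without DP replicate 1, DP replicate 2 or CD4intCD8+ replicate 2, at changes of 0.49, 0.56 and 0.38. The second was lost without DP replicate 1, DP replicate 2 or CD8SP replicate 2, at changes of 0.53, 0.60 and 0.53.

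Psmd8, a lid subunit, was the member that fell. It had 1305 and 1358 in DP cells, 1231 and 1111 in CD4intCD8+ cells and 1063 and 1036 in CD8SP cells, in that order without overlap, and fell by 0.34 ± 0.10 on the log2 scale in CD8SP against DP cells (adjusted p = 0.0387). The call was lost without any 1 of the DP and CD8SP arrays, at changes from -0.37 to -0.31. It was also lost after quantile normalization (-0.28, limma adjusted p = 0.0682), without a filter and without the intensity trend. Psmd3, also of the lid, had 886 and 779 in DP cells, 705 and 631 in CD4intCD8+ cells and 712 and 754 in CD8SP cells (-0.32 ± 0.12 in CD4intCD8+ against DP cells, adjusted p = 0.115; 0.0455 with the block). Psmd4, a ubiquitin receptor, had 1019 and 1172 in DP cells, 925 and 896 in CD4intCD8+ cells and 910.3 and 895 in CD8SP cells (-0.27 ± 0.11 in CD8SP against DP cells, adjusted p = 0.106; 0.0494 with the block). These 3 genes had both DP arrays above all 4 later arrays, as did Psme3ip1, which makes 4 of 45 members (8.89%), against 20.6% of all genes.

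Other lid genes lay on the opposite side. Psmd14, the deubiquitinase of the lid, had 842 and 862 in DP cells, 1107 and 1057 in CD4intCD8+ cells and 956 and 1005 in CD8SP cells, again without overlap (0.34 ± 0.10 in CD4intCD8+ against DP cells, adjusted p = 0.0542; 0.0175 with the block). Psmd6 had 677 and 832 in DP cells, 963 and 981 in CD4intCD8+ cells and 846 and 908 in CD8SP cells (0.37 ± 0.12, adjusted p = 0.0813; 0.0195 with the block). Psmd7, a lid subunit that pairs with Psmd14, had 201 and 149 in DP cells, 253 and 205 in CD4intCD8+ cells and 236 and 201 in CD8SP cells, and its spread was wide (0.38 ± 0.18, adjusted p = 0.205; 0.0451 with the block). Psmd2, the other scaffold of the base, stood at 0.27 ± 0.12 in CD4intCD8+ and 0.30 ± 0.12 in CD8SP against DP cells (adjusted p = 0.181 and 0.116). Psmd12 (0.16), Psmd13 (0.03) and Psmd11 (-0.06) lay closer to 0 in CD4intCD8+ against DP cells.

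The chaperones that assemble the base, Psmd5, Psmd9 and Psmd10, did not pass the test in any pairwise comparison. Psmd10, also known as gankyrin, had 184 and 248 in DP cells, 255 and 281 in CD4intCD8+ cells and 230.2 and 222 in CD8SP cells (0.32 ± 0.16 in CD4intCD8+ against DP cells, adjusted p = 0.238). Psmd9 had 137 and 164 in DP cells, 139 and 144 in CD4intCD8+ cells and 129.5 and 135 in CD8SP cells (-0.07 ± 0.15). Psmd5 lay between 239 and 294 on the 6 arrays with the stages overlapping.

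Of the activators, which cap the core in place of the 19S particle, Psme3 changed most. Psme3 encodes PA28 gamma, the nuclear activator that promotes degradation without ubiquitin. It had intensities of 104 and 112 in DP cells, 163 and 190.2 in CD4intCD8+ cells and 178 and 212 in CD8SP cells, and the 4 later arrays lay well above DP. It rose by 0.68 ± 0.15 in CD4intCD8+ (adjusted p = 0.0249) and 0.82 ± 0.15 in CD8SP against DP cells (adjusted p = 0.00692), or 1.60-fold and 1.76-fold. The first call was lost without DP replicate 1, DP replicate 2 or CD4intCD8+ replicate 2, at changes of 0.63, 0.73 and 0.57. The second was lost without DP replicate 1 or CD8SP replicate 2, at changes of 0.77 and 0.69. A second bright probe of Psme3 stood at 0.03 in CD4intCD8+ and 0.27 in CD8SP against DP cells, so the rise at the first step rests on 1 probe; with the mean of all probes neither call held (adjusted p = 0.269 and 0.154).

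Psme1, the PA28 alpha subunit induced by interferon gamma, had 1265 and 1328 in DP cells, 1493 and 1197 in CD4intCD8+ cells and 1512 and 1652 in CD8SP cells. The CD4intCD8+ arrays straddle DP, and the CD8SP arrays are the highest (0.29 ± 0.12 against DP, adjusted p = 0.127). Psme4, which encodes PA200, had 349 and 384 in DP cells, 336 and 343 in CD4intCD8+ cells and 353 and 314 in CD8SP cells (-0.11 ± 0.13 and -0.14 ± 0.13 against DP). Psmf1, which encodes PI31, described as an inhibitor of the core in vitro, had 117 and 125 in DP cells, 155 and 146 in CD4intCD8+ cells and 203 and 156 in CD8SP cells. It rose by 0.54 ± 0.16 in CD8SP against DP cells (limma adjusted p = 0.0445). The call was lost without DP replicate 1, DP replicate 2 or CD8SP replicate 1, at changes of 0.49, 0.59 and 0.35. It was also lost after quantile normalization (0.51, limma adjusted p = 0.0613), without a filter and without the intensity trend. The other 2 bright probes of Psmf1 stood at -0.19 and 0.06, so its probes disagree.

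The chaperones that assemble the 20S core, Psmg1 to Psmg4, had the largest median change of the subcomplexes in CD4intCD8+ against DP cells. All 4 had both CD4intCD8+ and both CD8SP arrays above both DP arrays, as had 23.5% of all genes. The median changes of the 4 chaperones were 0.46 and 0.52 against DP. Psmg4 had 122 and 144 in DP cells, 199 and 205 in CD4intCD8+ cells and 175 and 225 in CD8SP cells. It rose by 0.59 ± 0.16 in CD4intCD8+ (adjusted p = 0.0495) and by 0.56 ± 0.16 in CD8SP against DP cells (adjusted p = 0.0414). The first call was lost without any 1 of the DP and CD4intCD8+ arrays, at changes from 0.47 to 0.70. The second was lost without DP replicate 1, DP replicate 2 or CD8SP replicate 2, at 0.44, 0.67 and 0.38. Both were also lost after quantile normalization (0.57 and 0.53, limma adjusted p = 0.0558 and 0.0522), without a filter and without the intensity trend.

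Psmg2 had 275 and 277 in DP cells, 389.8 and 359.5 in CD4intCD8+ cells and 423 and 448 in CD8SP cells, in increasing order without overlap. It rose by 0.65 ± 0.12 in CD8SP against DP cells (adjusted p = 0.00692) and remained called under all 16 alternatives, with an adjusted p of at most 0.0482. At the first step it stood at 0.43 ± 0.12 (adjusted p = 0.0514; 0.0181 with the block). A second bright probe of Psmg2 stood at 0.61 in CD4intCD8+ and 0.68 in CD8SP against DP cells. Psmg1, the partner with which Psmg2 forms a dimer on the alpha ring, had 357 and 401 in DP cells, 463 and 523 in CD4intCD8+ cells and 429 and 553 in CD8SP cells (0.37 ± 0.15 and 0.36 ± 0.15, adjusted p = 0.143 and 0.133; 0.0296 and 0.028 with the block). Psmg3, the partner of Psmg4, had 153 and 197 in DP cells, 205 and 289 in CD4intCD8+ cells and 209 and 281 in CD8SP cells (0.48 ± 0.21 and 0.47 ± 0.21, adjusted p = 0.178 and 0.158; 0.0162 and 0.0131 with the block). In Psmg1 and Psmg3 the replicate 2 array was the higher in each stage.

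**Figure D5:**
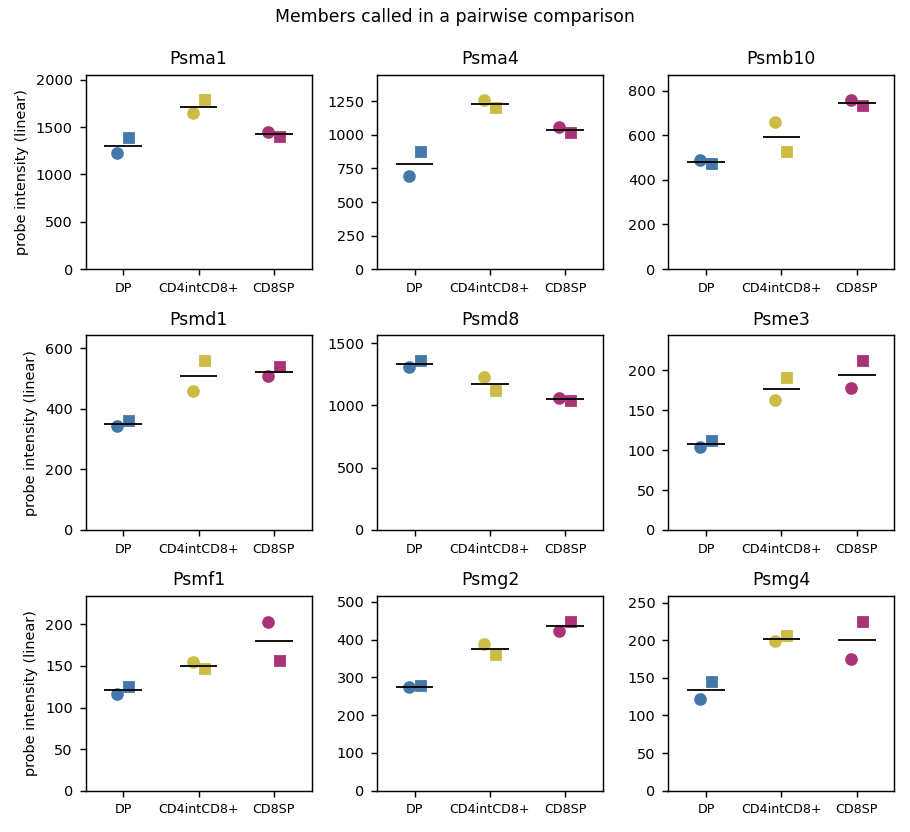
Linear probe intensities of the 9 members called in a comparison with DP cells, with replicate 1 as circles, replicate 2 as squares and the stage mean as a bar; each axis starts at 0. Psmd8 is lower on the CD8SP arrays (1063 and 1036) than on the DP arrays (1305 and 1358), and the other 8 genes are higher in at least 1 later stage.

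The genes that only share the letters of the rule behaved unlike each other. Psmc3ip, a factor of meiotic recombination, had 70.5 and 91.9 in DP cells, 88.2 and 157 in CD4intCD8+ cells and 87.4 and 137 in CD8SP cells, and its replicate 2 arrays were higher throughout (0.52 ± 0.29, adjusted p = 0.27; 0.0316 with the block). Psme3ip1, which binds PA28 gamma, had 496 and 484 in DP cells, 411 and 438 in CD4intCD8+ cells and 417 and 427 in CD8SP cells, below DP without overlap (-0.21 ± 0.12 in both comparisons, adjusted p = 0.279 and 0.232).

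Across the 3 stages the members followed different courses. Both CD4intCD8+ arrays lay above the 4 others for 9 members (20%), against 5.84% of all genes, and these were Psma1, Psma2, Psma4, Psmb1, Psmc1, Psmc6, Psmd6, Psmd14 and Psmd10. Against the mean of DP and CD8SP cells 0 members were called, and 0.00916% of all genes. There 6 members (13.3%) had an unadjusted p under 0.05, against 12.7% of all genes; with the block Psma1 and Psma4 were called (4.44%, against 1.25% of all genes called higher). Both CD8SP arrays lay below both CD4intCD8+ arrays for 14 members (31.1%), against 18.6% of all genes, and 4 of these were in the alpha ring. Both CD8SP arrays lay above both CD4intCD8+ arrays for 6 members (13.3%), against 20.2% of all genes. Of these Psmb10, Psmc2, Psme1, Psmf1 and Psmg2 had their highest arrays in CD8SP cells, and Psmd3 in DP cells.

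Where several bright probes measured a gene, they often differed by as much as the changes themselves. Of 19 members with more than 1 bright probe, the probes shared a direction in 11 for CD4intCD8+ and in 12 for CD8SP against DP cells. The 3 probes of Psma5 lay between 0.25 and 0.52 in CD4intCD8+ against DP cells, and the 2 of Psma7 at 0.38 and 0.39. All 3 probes of Psmd4 were below 0, from -0.42 to -0.13. The 3 probes of Psmb1 disagreed, from -0.32 to 0.22, as did the 4 of Psmd11, from -0.18 to 0.24.

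Other genes of protein degradation and its regulation were read from a list of 29, of which 20 were on the array with a single symbol and all 20 were tested. In CD4intCD8+ against DP cells 1 was called higher and 0 lower, and the same counts held in CD8SP against DP cells, with 0 called between the later stages. Of all genes 11.7%, 19.8% and 0.119% were called in these comparisons, in the same order. With the block 2 (Rad23b and Uchl5) and 5 (Lonp1, Rad23b, Txnl1, Uchl5 and, lower, Ubqln2) of the 20 were called against DP. The shares of all genes called were 23.5% and 30% in that fit. Without the block the gene called in both comparisons with DP was Uchl5, a deubiquitinase of the 19S particle. It had 576 and 628 in DP cells, 799 and 869 in CD4intCD8+ cells and 753 and 842 in CD8SP cells, above DP without overlap. It rose by 0.47 (adjusted p = 0.0336) and 0.40 (adjusted p = 0.0402). Both calls were lost without DP replicate 1 (adjusted p = 0.17 and 0.186) or DP replicate 2 (0.0922 and 0.0853), the first also without either CD4intCD8+ array (0.0518 and 0.197) and the second without either CD8SP array (0.0593 and 0.209). Pomp, the maturation factor of the core that works beside the Psmg chaperones, stood at 0.14 ± 0.09 in CD4intCD8+ against DP cells. Nfe2l1, which encodes the factor that induces proteasome genes when activity is short, stood at 0.07 ± 0.15.

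Markers of other properties moved with the stages as well. Of 9 tested proliferation genes 4 were called higher and 0 lower in CD4intCD8+ against DP cells (6.86% and 4.84% of all genes). In CD8SP against DP cells 3 were called higher and 0 lower (11.5% and 8.35% of all genes). Of the 9 only Tyms lay below 0, at -0.22 and -0.25 in these comparisons. The summed intensity of the 9 was 4832 and 5077 in DP cells, 6562 and 9221 in CD4intCD8+ cells and 6001 and 8090.0 in CD8SP cells. The actin 3′ to 5′ ratio, a sign of RNA length, was 1.98 and 2.14 in DP cells, 2.37 and 3.47 in CD4intCD8+ cells and 2.28 and 2.62 in CD8SP cells. With this ratio as a covariate, 1 member (Psma4) was called in CD4intCD8+ against DP cells, and Psme3, Psmg4, Psmd1 and Psma1 were not, at changes of 0.47, 0.46, 0.30 and 0.31 (adjusted p from 0.28 to 0.436); 4.29% of all genes were called in that fit, against 11.7% without the covariate. In CD8SP against DP cells 7 were called, with Psmd8 lost at -0.30 (-0.34 without the covariate; adjusted p = 0.0785), Psmg4 lost at 0.50 (0.56 without it; adjusted p = 0.0609) and Psme1 gained at 0.37 (adjusted p = 0.0411). There 20.1% of all genes were called, against 19.8%. Of 10 genes of thymic epithelium, Foxn1, Krt8, Krt18, Ccl25, Prss16 and Psmb11 lay below the filter on dim genes. The summed intensity of the 10 was 1036 and 1134 in DP cells, 529 and 595 in CD4intCD8+ cells and 444 and 458 in CD8SP cells. Ctsl alone gave 783 and 865, 269 and 316, and 179.5 and 186 of these sums, so their fall followed Ctsl. Its change was -1.48 in CD4intCD8+ and -2.13 in CD8SP against DP cells (limma adjusted p = 0.00109 and 4.43e-05). Of the 4 tested genes of this list only Ctsl was called in these comparisons. Of the 3 natural killer genes Ncr1 and Klrc1 lay below the filter, and the granule protease Gzma rose by 1.55 in CD4intCD8+ and 1.45 in CD8SP against DP cells (adjusted p = 0.000672 and 0.000163). The summed intensity of these 3 was 1009 and 881 in DP cells, 2450.2 and 2963 in CD4intCD8+ cells and 2398 and 2710 in CD8SP cells. Of 4 B cell genes Cd79a and Pax5 lay below the filter, and Cd79b rose by 0.90 in CD8SP against DP cells (adjusted p = 0.0118), with 68.5 and 66.0 in CD8SP cells and 31.9 and 34.9 in DP cells. The summed intensity of the 4 was 153 and 193 in DP cells, 194 and 88.4 in CD4intCD8+ cells and 227 and 220 in CD8SP cells. Of 3 thymocyte genes Thy1 fell by 0.62 in CD4intCD8+ and by 0.67 in CD8SP against DP cells (adjusted p = 0.00749 and 0.00189). In the dendritic, myeloid and erythroid lists 0 genes were called, but few could be. Of these genes on the array, 1 of 5, 2 of 5 and 1 of 3 passed the filter on dim genes and were tested. The part of these markers in the results for the proteasome genes was not tested.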

How the data were processed

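Biotin-labelled cRNA of 6 arrays was measured, and the deposited table holds 1 linear intensity per probe and array; the sources used here do not give how the authors computed them. Values below 0 show that a signal had been subtracted (background or mismatch, not stated), and medians of 24.9 to 25.7 that the arrays share a scale, so a change in total RNA per cell cannot be seen. Negative values were raised to 0 before a pseudocount of 5.84, the 10th percentile of positive values, was added and log2 taken; fold changes on that scale understate those of dim genes. The filter kept 10916 of 18193 genes, those whose mean reached the 40th percentile of gene means (log2 5.19; intensity 30.8). The 6 arrays were fitted together with limma 3.58.1 (R 4.3.3, lmFit, then eBayes with trend), with Benjamini-Hochberg adjustment over all genes within a contrast. Values after ± are standard errors of that fit. The median standard error was 0.17, and the number of arrays limits the precision. The main fit held stage alone and did not pair the arrays, and it gave the calls and standard errors reported without a block. Only the alternative fit with a block took replicate numbers to pair the arrays. Same-numbered arrays deviated together (correlations of 0.26, 0.21 and 0.30 across genes, each above 0.1), and the labels name 2 experiments. Subunits are named by known roles. The members and lists were chosen with earlier results of these data known. All called members, catalytic subunits, activators, the inhibitor and the extremes of each subcomplex are given with their array values; other members were named after their values were seen.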

Additional observations from a re-analysis of the deposited data

How the results depend on the processing

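Of the results for single members under the alternatives, 1964 kept their direction and side of the threshold, 66 lost a call, 26 gained one, 103 that were never called moved and 1 turned, Psma1 in CD4intCD8+ against DP cells, at -0.16 with the mean of all probes, 3 of which are dim. Members called in CD4intCD8+ against DP cells numbered 16 with the replicate block (23.5% of all genes), 8 with the 60th-percentile filter (17.3%), 3 without a filter (5.69%), 2 without the intensity trend (7.34%) or with the mean of all probes (7%), 1 with the actin ratio as a covariate (4.29%), and 0 to 5 when 1 array was left out (1.71% to 12.8%). In CD8SP against DP cells they numbered 13 with the replicate block (30%), 4 without a filter (10.4%), without the trend (15.9%) or with the mean of all probes (14.2%), and 1 to 8 with 1 array left out (9.33% to 21.5%). The stage F test called 17 with the block (28.4%), 3 with the mean of all probes (10.5%), 2 without the trend (11.1%) and 0 to 5 with 1 array left out (4.21% to 20.2%). The block called 2 against the mean of DP and CD8SP cells. In the pairwise comparisons the block changed the call of no member beyond those named beside it. After quantile normalization 8 members were called in CD8SP against DP cells (19.5% of all genes), 5 of them shared with the main fit. Psmd8, Psmg4 and Psmf1 lost the call there, and Psma3, Psmc2 and Psma5 gained one. In CD4intCD8+ against DP cells quantile normalization called 6 (11.5%), with Psma2 and Psmd14 gained and Psmg4 lost. The count of 1.5-fold members was 1 with a pseudocount of 32 (8.55%) and 1 to 6 with 1 array left out.

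The members' median in CD4intCD8+ against DP cells was 0.26 after quantile normalization and 0.12 with the mean of all probes. In CD8SP against DP cells it was 0.079 with the mean of all probes and 0.076 to 0.21 with 1 array left out. Against the mean of DP and CD8SP cells it was 0.068 with the actin covariate and 0.042 with the mean of all probes. Psmb9 over Psmb6 in CD8SP against DP cells was 0.47 with a pseudocount of 32 and 0.45 after quantile normalization. With the mean of all probes Psmb8 over Psmb5 was -0.050 in CD4intCD8+ against DP cells and 0.075 in CD8SP against CD4intCD8+ cells.

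Over all genes, 2562 were called in CD4intCD8+ against DP cells with the block, 801 without the trend, 764 with the mean of all probes, 468 with the actin covariate and 187 to 1399 with 1 array left out, against 1277 as reported. In CD8SP against DP cells 3277 were called with the block and 1018 to 2345 with 1 array left out. In CD8SP against CD4intCD8+ cells 227 were called with the block, 34 with the actin covariate, 8 with the 60th-percentile filter or only the 4 arrays compared, 2 with the mean of all probes and 6 to 70 with 1 array left out. Against the mean of DP and CD8SP cells 215 were called with the block, 6 with the actin covariate, 0 with a pseudocount of 32, without a filter, after quantile normalization, without the trend or with the mean of all probes, and 0 to 61 with 1 array left out. Calls among the 20 other genes of protein degradation were 2 and 5 with the block in CD4intCD8+ and CD8SP against DP cells (23.5% and 30% of all genes). They were 0 in both without the trend, with the actin covariate or with the mean of all probes, 0 in CD8SP against DP cells without a filter, and 0 to 1 with 1 array left out. A left-out array removes a sample and a stricter filter tests fewer genes; otherwise the cause was not tested. With 2 arrays a stage, changes near 1 standard error (median 0.17) cannot be seen, and changes of several standard errors can also be missed. Psmg2, at 0.43 ± 0.12 in CD4intCD8+ against DP cells, was not called (limma adjusted p = 0.0514).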
